A study of Mus musculus with 4 samples.

Results

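Transcripts of 9 genes of the JAK-STAT pathway were measured in mouse T cells. They are the STAT transcription factors Stat2, Stat3, Stat4, Stat5a, Stat5b and Stat6 and the Janus kinases Jak1, Jak2 and Jak3, chosen by gene symbol and not by level, and they make up 9 of the 50600 genes of the files. All 9 were counted in every library. The cells were primary T cells of C57BL/6NJ mice, sequenced as 4 libraries that the labels call biological replicates 1 to 4 of 1 group. The names of the alignments add Th0, activated, sorted and 72 h, the linked culture protocol is named for CD4+ T cell differentiation, and age and sex were not given. There was no resting, untreated or polarised group, so genes were compared with each other inside each library and the spread over libraries is the error. All libraries carry 1 donor entry and whether animals or cultures were separate is not said, so every p-value measures the spread between these 4 libraries, which may be technical.

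Cytokine receptors of this pathway have no kinase of their own. A JAK bound to the receptor tail is switched on when the cytokine joins the chains, it phosphorylates the receptor and then a STAT, and the paired STATs enter the nucleus and bind DNA. In T cells IL-2, IL-7 and IL-21 use Jak1 and Jak3, with Stat5a and Stat5b or Stat3 as the factor, IL-4 uses Jak1 and Jak3 with Stat6, and IL-12 uses Jak2 with Stat4. Type I interferon uses Stat2 bound to Irf9.

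Libraries held between 34978213 and 118937382 counted read pairs. A gene at 0 could have had up to 3 counts, which is 0.0858 CPM (counts scaled by the library total) in replicate 1 and 0.0252 in replicate 2, and this limit covers counting error only. The labelled cell type was checked with marker genes. Levels are given as TPM, which divides counts by gene length and scales them to a fixed sum, and a gene is called expressed at 1 TPM or more in each of the 4 libraries. All 15 T cell markers were expressed, with a summed TPM of 9351 to 9947, and Cd4 stood at 975.7 ± 29.3 TPM (SD, n = 4). Of 8 B cell markers 1 was, with a sum of 3.73 to 6.95, and of 10 myeloid markers 1, with a sum of 1.84 to 3.62 and no count of 5 of them, Lyz2 and S100a8 included. Of 7 NK and CD8 markers 3 were expressed, with a sum of 11.5 to 18.6, and of 9 erythroid, platelet and stromal markers 2, with a sum of 5.89 to 7.20. The levels below are sums over all cells, and fewer cells of a type cannot be told apart from less RNA per cell.

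Stat5a and Stat5b come first because their sequences bear on how their reads can be counted. They are near copies that lie beside each other. On mm10, Stat5b occupies chromosome 11 from 100780731 to 100850724 on the minus strand and Stat5a from 100859351 to 100885169 on the plus strand, with 8626 bases and no gene of the files between them. Their coding sequences matched at 2076 of 2294 aligned bases, or 90.5%, whereas the other 14 pairs of these STATs matched at 56.5% to 63.7% and the 3 pairs of JAKs at 57.1% to 60.6%. The longest stretch that both share without a mismatch is 324 bases, coding bases 571 to 894, in exons 6 to 8 of each gene. In the other pairs of STATs and of JAKs the longest such stretch was 23 bases. In the genome the stretch covers 961 bases in each gene, introns included, at chr11:100874023-100874983 on the plus strand for Stat5a and chr11:100797741-100798701 on the minus strand for Stat5b. Its first 120 bases are shown because a read that falls wholly within the stretch does not tell the copies apart.

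Stat5a and Stat5b, coding bases 571 to 690: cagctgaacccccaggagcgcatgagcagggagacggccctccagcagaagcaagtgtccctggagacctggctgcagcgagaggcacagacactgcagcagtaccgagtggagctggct

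The least alike 120-base window of the gap-free alignment starts near the front of the coding sequence, at bases 45 to 164 in exons 2 and 3, where 33 bases differ. It is shown beside the identical stretch because its reads can be assigned, and capitals mark the bases that differ.

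Stat5a, coding bases 45 to 164: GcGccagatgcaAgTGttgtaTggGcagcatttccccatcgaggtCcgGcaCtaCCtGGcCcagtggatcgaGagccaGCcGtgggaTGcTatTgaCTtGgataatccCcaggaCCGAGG
Stat5b, coding bases 45 to 164: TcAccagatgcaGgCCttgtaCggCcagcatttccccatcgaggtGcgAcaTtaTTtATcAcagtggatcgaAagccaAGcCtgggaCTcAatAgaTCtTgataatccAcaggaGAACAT

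Over whole transcripts, 630 of 3556 windows of 50 bases in Stat5a (17.7%) also occurred in Stat5b or Stat3, and 608 of 5164 in Stat5b (11.8%) also occurred in Stat5a. With 100-base windows the shares were 7.56% and 5.18%. Stat2, Stat3, Stat6, Jak1 and Jak2 shared no 50-base window with another gene from the transcript with the longest coding sequence. Stat4 shared 28.6% of its windows with Gm28177, an overlapping gene model on the same strand, and Jak3 shared 8.94% with Insl3, the gene of an insulin-like peptide. Counts of Stat4, Stat5a, Stat5b and Jak3 are therefore less certain than those of the other 5 genes.

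Among the STAT genes, transcripts of Stat6 were the most abundant and those of Stat2 the least. Stat6, the factor of IL-4 and IL-13 (ENSMUSG00000002147.18, chromosome 10, 127642986 to 127660957, plus strand), stood at 253.6, 289.0, 293.0 and 287.6 TPM in replicates 1 to 4. The mean was 280.8 ± 18.3 TPM (SD, n = 4), above 94.7% of the 10868 expressed protein-coding genes. Replicate 1 lay below the other libraries, which lay close together. In TPM with exonic lengths, Stat6 was the highest of the 9 genes in each library.

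Stat3, the factor of IL-6, IL-10 and IL-21 (ENSMUSG00000004040.16, chromosome 11, 100885098 to 100939540, minus strand), stood at 130.1, 143.5, 155.9 and 152.4 TPM, with a mean of 145.5 ± 11.5 (SD, n = 4). It was second among the STAT genes in every library. The Stat3 and Stat5a genes point at each other and their last 72 bases overlap on opposite strands, which counting by strand keeps apart.

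Stat5b (ENSMUSG00000020919.11) stood at 101.5, 113.1, 119.4 and 119.8 TPM, and Stat5a (ENSMUSG00000004043.14) at 99.9985, 107.2, 113.8 and 108.7 TPM. Both serve the IL-2 and IL-7 receptors. Their means were 113.4 ± 8.54 and 107.4 ± 5.68 TPM (SD, n = 4), and their ranges overlapped. Stat5b made up 51.3% ± 0.846 of their sum, and between 50.4% and 52.4% in single libraries.

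Stat4, the factor of IL-12 (ENSMUSG00000062939.11, chromosome 1, 51987148 to 52107189, plus strand), stood at 94.6, 94.7, 100.7 and 110.7 TPM, with a mean of 100.2 ± 7.59 (SD, n = 4). Its range overlapped that of Stat5a. Of its 3872 exonic bases, 1033 (26.7%) are also exons of Gm28177, to which only 3 to 20 pairs per library were assigned. With the bases of no other gene as the length, an alternative chosen after the data were seen, Stat4 stood at 135.0 ± 10.2 TPM. Stat4 minus Stat3 was then -0.09 log2, against -0.54 with all exonic bases.

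Stat2, the interferon factor (ENSMUSG00000040033.16, chromosome 10, 128270559 to 128292849, plus strand), stood at 13.5, 18.3, 20.3 and 21.1 TPM, with a mean of 18.3 ± 3.43 (SD, n = 4). Replicate 1 was the lowest, and the highest library was 1.57 times the lowest. Its lowest count was 902 pairs, for which counting alone gives an error of 3.33%, while the lowest counts of the other 8 genes lay between 4136 and 13994. The level lay above only 34.7% of the expressed protein-coding genes, and no value of Stat2 came near the range of another of these genes.

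**Figure D1:**
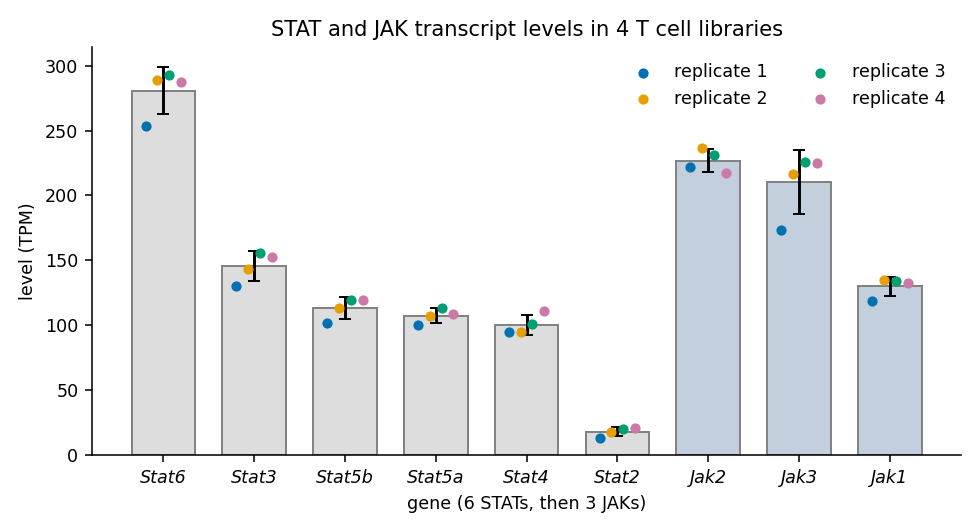
Levels of the 6 STAT genes and 3 JAK genes in TPM (vertical axis) for each gene (horizontal axis); bars are means of 4 libraries, error bars are the SD and points are single libraries. Stat6 is the highest and Stat2 the lowest, and replicate 1 is the lowest library for every gene shown except Jak2.

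Each STAT gene was compared with each other STAT gene, and each JAK with each other JAK, as a difference of log2(TPM + 0.1) inside a library, which slightly understates differences of low genes. The exact two-sided sign-flip permutation test over 4 libraries cannot give a p below 1 in 8, which rounds to 0.13, so no difference could pass 0.05, and the direction and the spread are what the data give. Of 18 pairs, 16 had 1 direction in 4 of 4 libraries (exact p = 0.13, adjusted p = 0.141 over the 18). Stat6 exceeded Stat2 by 3.95 ± 0.20 log2 (SD, n = 4), which is 15.5-fold, and Stat3, Stat5b, Stat5a and Stat4 exceeded Stat2 by 3.00, 2.64, 2.57 and 2.46 log2.

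Stat6 exceeded Stat3 by 0.95 ± 0.05 log2 in 4 of 4 libraries, but was lower by 0.16 log2 (a difference of -0.16) in CPM, which is not divided by length. With the length of the transcript with the longest coding sequence in place of all exons, Stat6 and Stat3 came to 224.7 ± 13.98 and 210.6 ± 16.2 TPM and differed by 0.09 log2. The exonic length of Stat3 is 9527 bases and that of its longest coding transcript 4516. The lead of Stat6 over Stat3 thus varied with the length used, while its lead over Stat5b lay between 0.98 and 1.44 log2 under these settings and that over Stat5a between 0.62 and 1.38.

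Stat5b exceeded Stat5a by 0.08 ± 0.05 log2 in 4 of 4 libraries, and this direction turned to -0.29 in CPM and to -0.82 with transcript lengths. No order of Stat5a and Stat5b can therefore be read from these counts. Stat5b exceeded Stat4 by 0.18 ± 0.08 log2 in 4 of 4 libraries, turning to -0.11 with transcript lengths and -0.27 with unshared bases. Stat5a exceeded Stat4 by 0.10 ± 0.10 log2 in 3 of 4 libraries (exact p = 0.25, adjusted p = 0.265), turning to -0.35 with unshared bases.

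As parts of the summed TPM of the 6 STAT genes, Stat6 took 36.7% ± 0.761 (SD, n = 4), Stat3 19.0% ± 0.315, Stat5b 14.8% ± 0.140, Stat5a 14.04% ± 0.354, Stat4 13.1% ± 0.752 and Stat2 2.38% ± 0.305. The sum itself was 693.2, 765.7, 803.0 and 800.3 TPM. With transcript lengths Stat3 took 27.3% and Stat6 29.2%, so these 2 factors held the largest parts under either length.

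**Figure D2:**
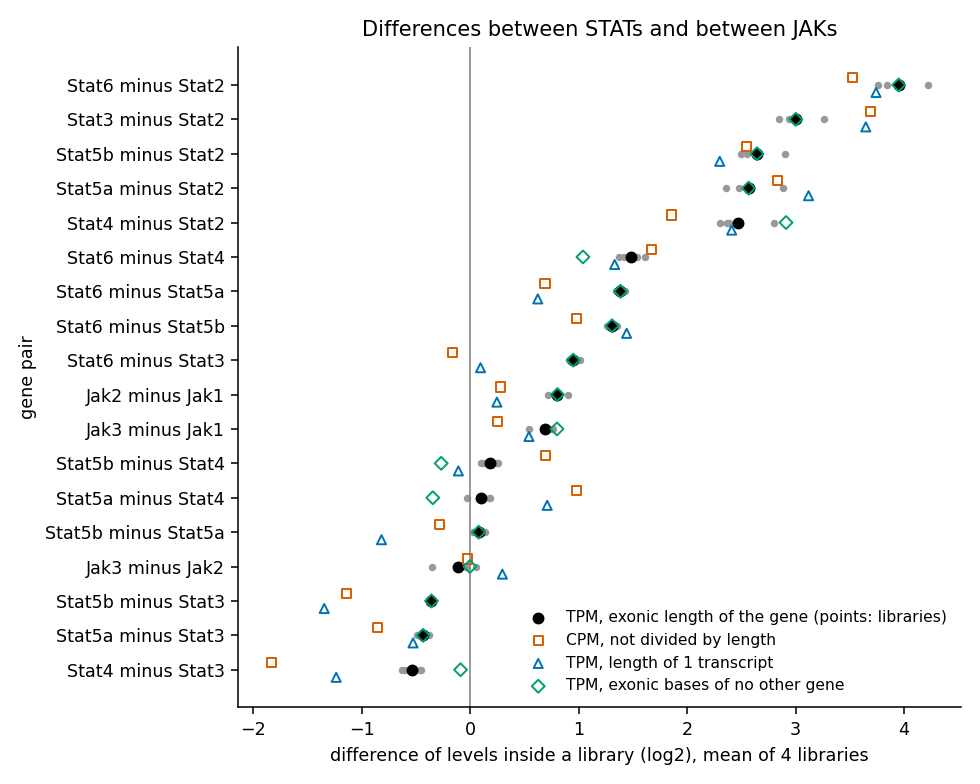
Difference of levels inside a library on the log2 scale (horizontal axis) for 15 pairs of STAT genes and 3 pairs of JAK genes (vertical axis); black points are means of 4 libraries in TPM, grey points single libraries, and open symbols the means with another length or none. Differences against Stat2 stay above 1.8 under every setting, while those among Stat4, Stat5a and Stat5b, of Stat6 against Stat3 and of Jak3 against Jak2 cross 0 under at least 1 setting.

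Of the JAK genes, Jak2 and Jak3 stood near each other and above Jak1. Jak2, the kinase of the IL-12, interferon-gamma and GM-CSF receptors (ENSMUSG00000024789.12, chromosome 19, 29251828 to 29313080, plus strand), stood at 221.9, 236.9, 231.3 and 217.5 TPM, with a mean of 226.9 ± 8.79 (SD, n = 4). The highest library was 1.09 times the lowest, the narrowest range of the 9 genes. Replicate 4, not replicate 1, was its lowest library.

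Jak3, which binds the common gamma chain (ENSMUSG00000031805.17, chromosome 8, 71676296 to 71690575, plus strand), stood at 173.7, 216.6, 225.5 and 224.9 TPM, with a mean of 210.2 ± 24.6 (SD, n = 4). Replicate 1 lay well below the others. Of the exonic bases of Jak3, 404 (7.55%) are also exons of Insl3, to which 280 to 956 pairs per library were assigned, and without them Jak3 stood at 224.6 ± 26.3 TPM.

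Jak1, which binds the IL-2 receptor beta chain and serves most of these receptors (ENSMUSG00000028530.14, chromosome 4, 101152367 to 101265282, minus strand), stood at 119.0, 134.7, 133.9 and 132.5 TPM, with a mean of 130.02 ± 7.42 (SD, n = 4). No library of Jak1 reached the lowest of Jak2 or Jak3.

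Jak2 exceeded Jak1 by 0.80 ± 0.08 log2 and Jak3 exceeded Jak1 by 0.69 ± 0.10 log2, each in 4 of 4 libraries (exact p = 0.13, adjusted p = 0.141). In CPM these differences were 0.28 and 0.25 log2, and with transcript lengths 0.25 and 0.54. Jak3 minus Jak2 was -0.12 ± 0.17 log2, with Jak3 higher in 1 of 4 libraries (exact p = 0.375). Without replicate 1 it was -0.04, and with transcript lengths it turned to 0.30, so no order of Jak2 and Jak3 is given. Jak2 took 40.1% ± 2.25 of the summed TPM of the 3 kinases, Jak3 37.0% ± 2.34 and Jak1 22.9% ± 0.195.

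The JAK genes were set beside other cytosolic tyrosine kinases. Lck, the kinase that starts T cell receptor signalling, was the most abundant at 756.7 ± 20.99 TPM (SD, n = 4), followed by Zap70 at 555.3 ± 41.4, and both stood above all 3 JAK genes. Fyn, at 186.3 ± 6.51, lay between Jak3 and Jak1. The next kinase below Jak1 was Ptk2b at 74.5 ± 5.23. Of the 28 kinases that are not JAKs, 18 were expressed.

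In the order of all 9 genes, Stat6, Jak2, Jak3, Stat3, Jak1, Stat5b, Stat5a, Stat4 and Stat2, only 3 of the 8 neighbouring pairs had ranges that did not overlap. These were Stat6 over Jak2 by 0.31 ± 0.09 log2, Jak3 over Stat3 by 0.53 ± 0.08 and Stat4 over Stat2 by 2.46 ± 0.23. Inside libraries, Stat3 exceeded Jak1 by 0.16 ± 0.06 log2, Jak1 exceeded Stat5b by 0.20 ± 0.05 and Stat5b exceeded Stat5a by 0.08 ± 0.05, each in 4 of 4 libraries although their ranges over libraries overlapped. Jak2 over Jak3 and Stat5a over Stat4 held in 3 of 4 libraries. This order is that of TPM with exonic lengths. With transcript lengths the order of the means was Stat6, Stat3, Jak3, Jak2, Stat5a, Jak1, Stat4, Stat5b and Stat2. Stat3 at 210.6 ± 16.2 TPM (SD, n = 4) then stood above Jak3 at 192.0 ± 21.9 and Jak2 at 155.7 ± 6.13. Stat5a at 145.8 ± 7.58 stood above Jak1 at 131.4 ± 7.07. With unshared bases the mean of Stat4, 135.0 TPM, stood above that of Jak1, 128.5 TPM. Before division by length, Stat3 also had more counts than Jak3 in every library. Stat6 and Jak2 had 12600 and 12602 counts in replicate 1, while Stat6 had more in the other libraries.

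Receptors of the pathway were present at very different levels, some above and some below the factor or kinase compared with them. All 8 chains of the common gamma chain list were expressed, against a background of 49.9% of protein-coding genes. The common gamma chain itself, Il2rg, stood at 548.4 ± 28.6 TPM (SD, n = 4), Il2ra, the high-affinity IL-2 receptor chain, at 485.0 ± 37.1, and Il2rb at 411.2 ± 35.9. Each of these chains was more abundant than the kinase or factor set beside it. Jak3 minus Il2rg was -1.39 ± 0.12 log2 and Jak1 minus Il2rb -1.66 ± 0.05. Stat5a minus Il2ra was -2.17 ± 0.06, and Stat5b minus Il2ra -2.09 ± 0.03.

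The order was reversed for Il4ra, Il12rb2 and Il6st. Stat6 exceeded Il4ra, the IL-4 receptor chain at 142.7 ± 13.4 TPM, by 0.98 ± 0.05 log2. Il12rb2, the IL-12 receptor chain that binds Jak2, was at 2.73, 3.57, 3.84 and 3.62 TPM. Its partner Il12rb1, at 121.9 ± 10.7, was above Stat4 in every library in TPM with exonic lengths. With unshared bases Stat4 came to 135.0 ± 10.2 TPM, so this order is tied to the length used, and it was not tested with unshared bases. Stat4 exceeded Il12rb2 by 4.83 ± 0.18 log2, which is 28.5-fold, and Jak2 exceeded it by 6.01 ± 0.20, which is 64.5-fold. Il6st, the shared chain of the IL-6 family, was at 14.8 ± 1.06 TPM, and Stat3 exceeded it by 3.28 ± 0.09 log2, or 9.74-fold. Stat2 minus its partner Irf9, at 33.0 ± 4.57 TPM, was -0.86 ± 0.13. All 9 of these differences had 1 direction in each library (exact permutation p = 0.13, adjusted p = 0.13 over the 9), and none turned in CPM or with other lengths. In CPM, however, Jak3 minus Il2rg was -0.23, Jak1 minus Il2rb -0.28 and Stat6 minus Il4ra 0.53 log2, and with transcript lengths Jak1 minus Il2rb was -0.51 and Stat2 minus Irf9 -1.29. With these lengths Stat3 minus Il6st was 4.00 and Stat5a minus Il2ra -1.56. Of the 2387 exonic bases of Il2rg, 1659 belong to no other gene on its strand. With unshared bases Il2rg stood at 779.4 ± 40.3 TPM and Jak3 minus Il2rg was -1.80.

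Of the 9 chains of the IL-6 and IL-12 families, 6 were expressed, led by Il12rb1 and then Il27ra, the IL-27 receptor, at 65.9 ± 8.92 TPM (SD, n = 4). Of 10 interferon and IL-10 family chains 7 were expressed. Ifnar1, a type I interferon receptor chain, led them at 72.7 ± 4.00 TPM, followed by Ifngr1, of the interferon-gamma receptor, at 38.2 ± 1.02. Of 14 other chains that couple to JAKs, 6 were expressed, led by Crlf2, the TSLP receptor chain, at 63.7 ± 5.55 TPM and Csf2ra, of the GM-CSF receptor, at 49.4 ± 8.28, while 5 had no count in any library.

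The listed inhibitors and phosphatases were all present. Each of the 13 SOCS, PIAS and adaptor genes was expressed. Cish, an early feedback inhibitor of IL-2 signalling, stood at 145.4, 173.8, 196.6 and 198.4 TPM, and Socs1, which blocks JAK activity, at 104.6 ± 8.83 (SD, n = 4). All 7 phosphatases of the list were expressed too. Whether each of them, Ptpn7 included, acts on a JAK or STAT was not tested. Ptpn6, the phosphatase SHP-1, led at 580.0 ± 20.9 TPM, more than each of the 9 STAT and JAK genes, and Ptpn7 followed at 226.6 ± 7.11. All 10 partners and cofactors were expressed, led by Ndufa13, a respiratory complex I subunit reported to bind Stat3, at 325.5 ± 28.9, and Sh2b1, an adaptor that binds Jak2, at 98.7 ± 10.4. In all, 57 of 71 pathway genes that are not STATs or JAKs were expressed.

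**Figure D3:**
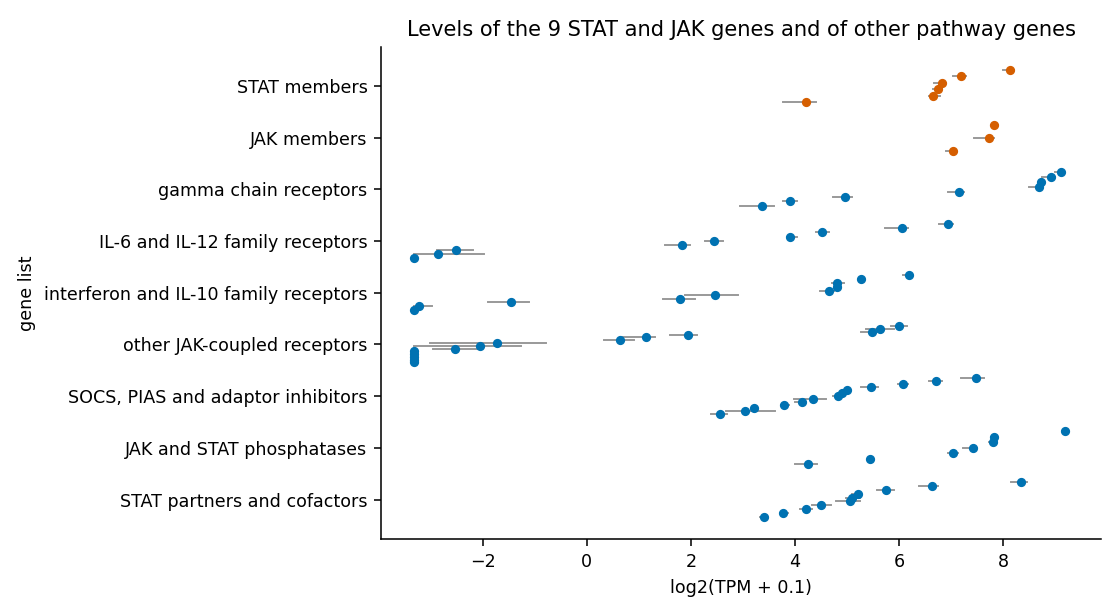
Levels as log2(TPM + 0.1) (horizontal axis) of the 6 STAT and 3 JAK genes (orange) and of 71 other pathway genes (blue) by list (vertical axis); points are means and lines run from the lowest to the highest of 4 libraries. Gamma chain receptors and phosphatases reach above the STAT and JAK genes, while 6 receptor chains with no count sit at the left edge with others near 0.

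The Cish promoter is shown because Cish is the textbook target of Stat5 and its start region carries a STAT motif in tandem. The motif searched was TTCNNNGAA, which reads the same pattern on both strands. In the RefSeq promoters of GRCm38.p6, which run from 250 bases before to 50 bases after a start, it occurs in 2726 of 32851 (8.30%), and 2 or more copies occur in 0.457%. The 2 Cish copies begin at base 1 and base 12, with the RefSeq start as base 1, and 2 bases lie between them. The stretch shown, which holds both copies and flanking bases, is chr9:107296655-107296682 on the plus strand. The fixed letters of the motif are in capitals.

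Cish start region: agttTTCctgGAAagTTCttgGAAatct

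None of the 12 promoters listed for the 9 STAT and JAK genes held the motif, which says only that these letters are not in these windows.

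Known targets differed in level between factors. All 15 listed STAT5 targets were expressed, led by Tnfrsf4 (OX40) at 2642 ± 96.1 TPM (SD, n = 4) and Tnfrsf18 (GITR) at 1201 ± 77.5. Of 13 STAT3 targets 10 were expressed, led by the activation factor Batf at 269.4 ± 16.7 and the hypoxia factor Hif1a at 161.3 ± 17.0. Of 8 STAT6 targets 6 were expressed, led by Il4ra and by Xbp1, a factor of the unfolded protein response, at 137.6 ± 8.23. Of 8 STAT4 targets 6 were expressed, but apart from the protease gene Furin at 87.0 ± 8.91 none exceeded Il18r1, an IL-18 receptor chain at 4.04 ± 0.628. These lists came from general knowledge of the factors, and other factors also act on their genes.

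Of 14 targets of Stat2 and Irf9, 8 were expressed, led by Bst2, the antiviral protein tetherin, at 387.6 ± 37.9 TPM (SD, n = 4) and Ifi27 at 87.1 ± 16.9. Usp18, an interferon-induced protease that damps interferon signalling, stood at 1.71, 1.23, 4.70 and 3.87 TPM. Isg15, a ubiquitin-like protein, stood at 12.8, 13.98, 29.4 and 29.1 TPM. Both were higher in replicates 3 and 4 than in replicates 1 and 2, whereas Stat2 was lower in replicate 1 and lay between 18.3 and 21.1 TPM in the other libraries. The summed TPM of the 14 targets was 466.3, 552.9, 580.1 and 636.6, with most of it from Bst2.

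Of 14 cytokines that signal through these proteins, 7 were expressed. Il2 led at 724.2, 629.2, 598.1 and 531.7 TPM, highest in replicate 1, and Il3 followed at 303.5 ± 27.1 (SD, n = 4).

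How far the genes varied between libraries was tested with the goodness of fit of edgeR under a dispersion that follows expression, over all 14269 genes with enough counts. None of the 9 STAT and JAK genes was more variable than usual for its level, where 66 genes or 0.463% of all tested were called at an adjusted p below 0.05. Without adjustment 1 of the 9 was below 0.05, against 5.69% of all genes. That gene was Stat2, with an edgeR p of 0.00280, an edgeR adjusted p of 0.238 and edgeR adjusted p-values of 0.251 to 1.00 over the alternatives. Without replicate 1 the unadjusted edgeR p of Stat2 was 0.313. The other 8 genes had adjusted p-values of 1.00. The median SD of log2 CPM was 0.0751 for the 9 genes and 0.119 for all genes tested, and 7 of the 9 were below the latter. Other lists of abundant genes also had low medians. These were 0.0599 for the phosphatases, 0.0755 for STAT5 targets, 0.0780 for T cell markers and 0.0942 for gamma chain receptors. A low SD is thus not particular to the STAT and JAK genes, and the part of level in it was not tested.

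Among the 71 other pathway genes, 58 were tested, 0 were called and 7 were below 0.05 unadjusted. Of 12 tested targets of Stat2 and Irf9, Usp18 was called (edgeR adjusted p = 0.0456) and 7 were below 0.05 unadjusted, among them Isg15 (edgeR adjusted p = 0.0677) and Ifi27 (edgeR adjusted p = 0.120).

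Replicate 1 was the lowest library for 8 of the 9 STAT and JAK genes in TPM, where 48.0% of all tested genes had their lowest TPM there. In CPM scaled with TMM, a correction for differences in RNA composition, it was the lowest for 7 of the 9, against 31.9%. After level was corrected for GC and length it was the lowest for 6, against 27.4%. The libraries differed in how level went with GC content over 12159 coding genes, with a rank correlation of -0.26, 0.0066, 0.076 and 0.26 in replicates 1 to 4. With exonic length the rank correlation was -0.15, 0.015, 0.28 and -0.15.

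Jak3 has the highest GC content of the 9 transcripts, 61.1%, against a median of 50.6% over coding genes and 44.3% for Jak2. Its highest library was 1.23 times its lowest in scaled CPM and 1.12 times after the correction, and its SD moved from 0.14 to 0.07 log2. Stat2, with a GC content of 51.9%, moved less, from 1.49 to 1.45 times, and its SD from 0.25 to 0.23 log2. The correction took GC content and length together, and their parts in these changes were not separated. Beyond this correction, the part of GC content in the levels of the other genes was not tested.

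**Figure D4:**
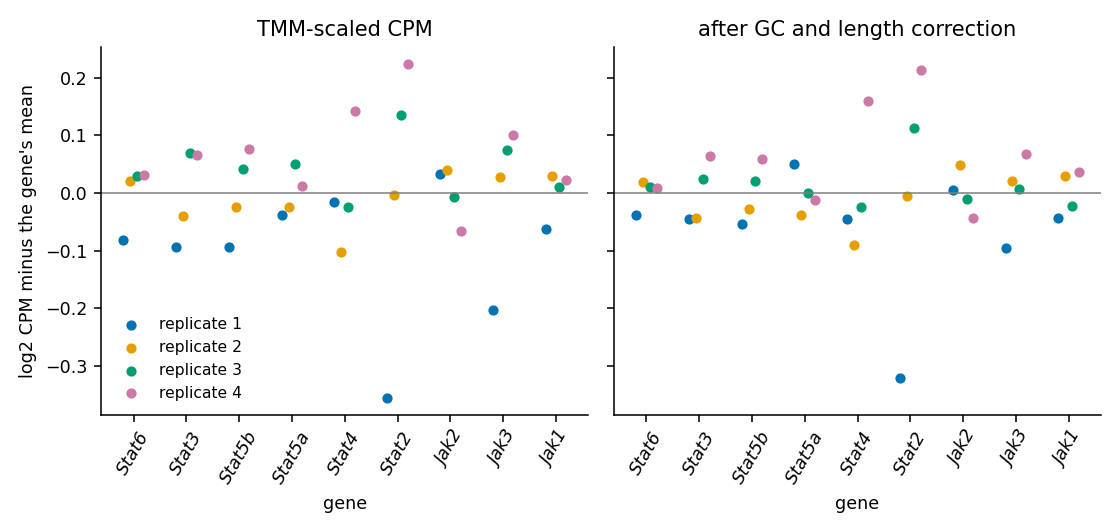
Log2 CPM of each STAT and JAK gene (horizontal axis) minus the mean of that gene over the 4 libraries (vertical axis), scaled with TMM on the left and corrected also for GC and length on the right; points are single libraries. Stat2 in replicate 1 is the farthest point in both panels, and the low point of Jak3 in replicate 1 moves from -0.20 to -0.10.

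For each STAT and JAK gene, the pathway gene with the most similar levels was taken as the one at the smallest Euclidean distance of log2(TPM + 0.1) over the 4 libraries, out of 71. The measure follows the level more than the pattern over libraries. The closest match was Jak2 with the phosphatase Ptpn7, at a distance of 0.046. Stat3 lay nearest to Il4ra (0.135), Jak1 to the phosphatase Ptpn11 (0.147), Stat5b to Il12rb1 (0.210) and both Stat5a (0.216) and Stat4 (0.231) to Socs1. Jak3 lay nearest to Ptprc (0.292), Stat2 to Pias3 (0.354) and Stat6 to Ndufa13 (0.521).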

How the data were processed

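RNA of 4 T cell libraries was sequenced in pairs. The labels call it total RNA, while the library protocol is named for polyadenylated RNA. Each deposited file holds unnormalised counts of pairs, made by the authors with featureCounts 1.4.6-p4 on GENCODE M13 exons of mm10, per the file headers. Both ends had to map, the reverse strand was set, and neither multiply mapped reads nor reads over several genes were counted. STAR appears in the names of the alignments, per the file headers. Its version and the read length are not given in the sources used here. Gene lengths for TPM are the deposited exonic lengths, an annotation value.

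Of 50600 identifiers, 50376 (99.6%) matched GENCODE M21 (GRCm38), which gave symbols, gene classes and transcripts. The transcript with the longest coding sequence stood for each gene in GC content, sequence comparison and the alternative length. Coding pairs were aligned end to end with Biopython 1.88. Promoters came from RefSeq, where all 9 genes matched.

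Levels were compared as log2(TPM + 0.1) inside libraries with exact two-sided sign-flip permutation tests and Benjamini-Hochberg adjustment over 18 pairs and, separately, 9 partner pairs. edgeR 4.0.16 (R 4.3.3) tested goodness of fit with an intercept only, filterByExpr, TMM and a trended dispersion over all genes. Log2 CPM used a prior count of 2. Chi-square per degree of freedom between pairs of libraries was 27.0 to 76.9. No pair of libraries thus differed by counting error alone, and all 4 were counted. This value cannot tell whether libraries were prepared from the same RNA. Named are the 9 genes, the genes of the partner pairs, the 2 most abundant of each of 21 lists (cell type marker lists are given by counts and sums instead) and any called, and the nearest pathway gene of each of the 9. Isg15, Fyn, Ptk2b, Cd4, Lyz2 and S100a8, and the overlapping Gm28177 and Insl3, were added outside this rule, after their values were seen. Some genes of the lists are not reported here by name. The genes and lists were chosen with earlier results of these data known. Alternatives were another length, CPM, a pseudocount of 1, other scaling, filter or dispersion, GC and length correction, and leaving out each library.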

Additional observations from a re-analysis of the deposited data

Results flagged for a closer look

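Of 88 values over the 4 libraries that were examined for a library far from the rest, 11 were picked out by the gap of their highest or lowest library, where chance gives about 1 in 20, or 4.4. In 8 of the 11 the library was replicate 1. Stat6 was at 253.6 TPM there against 287.6 to 293.0 in the others, and Jak1 at 119.0 against 132.5 to 134.7. Stat4 minus Stat2 was 2.80 log2 there against 2.31 to 2.38.

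Receptor chains were also low in replicate 1, with Il2ra at 429.4 TPM against 500.2 to 505.7, Il2rb at 358.0 against 421.2 to 433.0, Il4ra at 122.6 against 148.1 to 150.8 and Il27ra at 52.6 against 68.7 to 71.4. Trac, the T cell receptor alpha chain, was at 1755 TPM there against 1926 to 1949. Stat5b minus Il2ra was -2.14 log2 in replicate 2 against -2.08 to -2.07. Il6st was at 16.4 TPM in replicate 3 against 14.2 to 14.5, and Epcam, an epithelial marker, at 3.47 in replicate 2 against 3.17 to 3.21. The part of library composition in these gaps was not tested.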

How the results depend on the processing

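All 27 differences between genes kept their direction with a pseudocount of 1 and with each library left out. In CPM, Stat6 minus Stat3 turned to -0.16 log2 and Stat5b minus Stat5a to -0.29. With transcript lengths, Stat5b minus Stat5a turned to -0.82, Stat5b minus Stat4 to -0.11 and Jak3 minus Jak2 to 0.30. With the bases of no other gene, chosen after the data were seen, Stat5a minus Stat4 turned to -0.35 and Stat5b minus Stat4 to -0.27. These turns follow from the lengths used, since each alternative divides the same counts by another length or none. Genes more variable than the trend numbered 66, and 955 under a common dispersion, where the cause was not tested. The count was 41 without replicate 1 and 41 to 68 over the 4 runs with a library left out, which hold fewer samples. None of the 9 STAT and JAK genes was called under any of these settings. No paired analysis was possible because there is 1 group. Depth limits Stat2 most, with 902 pairs in replicate 1. Isoforms and protein levels were not measured.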

Other observations

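Of the cytokine genes listed, Csf2, which encodes GM-CSF, stood at 116.3, 125.2, 117.2 and 135.3 TPM, and Lif at 114.7, 126.8, 134.6 and 130.2 TPM. Il17f stood at 26.9, 22.2, 19.6 and 16.3 TPM and Il13 at 19.996, 29.7, 19.97 and 24.1 TPM, while Il4 was at 0.414 to 1.66 TPM and Ifng at 0 to 1.07 TPM. Gata3, the factor of the Th2 programme, stood at 33.6, 42.6, 42.4 and 40.2 TPM and Tbx21, that of the Th1 programme, at 3.74, 3.59, 2.79 and 3.33 TPM. These genes were singled out after their values were seen, and the libraries have no polarised group to compare them with.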
